A study of Mus musculus with 12 samples.

Results

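The 9 mRNAs described here encode the ELAV-like proteins Elavl1, Elavl2, Elavl3 and Elavl4 and the CELF proteins Celf1, Celf2, Celf3, Celf4 and Celf5. They were taken by name from the 37310 genes of the annotation used for counting, and each name matched 1 gene. Circuit-specific translating ribosome affinity purification (TRAP) followed by sequencing was used to ask which mRNAs depend on FosB in ventral hippocampus (vHPC) neurons that project to nucleus accumbens (NAc). All mice were of the C57BL/6 strain and carried the Cre-dependent ribosomal fusion eGFP-L10a in the Rosa26 locus, and all received retrograde HSV-Cre in NAc 3 weeks before the tissue was punched from vHPC under a fluorescent microscope. WT mice had intact FosB, and FosB KO mice were FosB fl/fl, so that the gene is lost only where Cre acts, and KO input also holds the cells that Cre did not reach. The 12 libraries were 3 WT TRAP, 3 KO TRAP, 3 WT input (RNA of the whole punch) and 3 KO input. Each came from a pool of mice, 3 by the labels, and each of the 6 pools gave 1 TRAP and 1 input library.

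ELAV-like proteins bind AU-rich and U-rich stretches of mRNA. Elavl1 (HuR) is made in nearly all cells and is best known for stabilizing short-lived mRNAs, whereas Elavl2 (HuB), Elavl3 (HuC) and Elavl4 (HuD) are the classical neuronal members, with roles in splicing, stability and translation of neuronal mRNAs. CELF proteins bind GU-rich stretches; Celf1 and Celf2 act in many tissues on splicing and mRNA decay, and Celf3, Celf4 and Celf5 are found mainly in the nervous system.

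Members of a family are related in sequence, so a read from one could in principle be given to another. Across the annotated coding sequences, the ELAV-like members were identical at 71.6% to 78.1% of aligned bases, and their longest shared run was 29 bases (Elavl3 with Elavl4). The CELF members were identical at 64.4% to 75.1% of aligned bases, with shared runs of at most 26 bases. A 60-base coding window around the 23-base run that Elavl2 and Elavl4 share is given, 5′ to 3′ on the coding strand, because it holds the longest stretch in which the reads of these 2 genes look alike. Capitals mark bases that differ from Elavl2, at 13 positions in Elavl1, 12 in Elavl3 and 11 in Elavl4. The windows lie in coding exons of mm9, all on the minus strand.
Elavl2, chr4:90930729-90930788: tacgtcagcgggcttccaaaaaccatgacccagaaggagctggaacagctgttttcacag
Elavl4, chr4:109885779-109885838: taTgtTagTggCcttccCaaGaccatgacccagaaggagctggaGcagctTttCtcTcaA
Elavl3, chr9:21830998-21831057: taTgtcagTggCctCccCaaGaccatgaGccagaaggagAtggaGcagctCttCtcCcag
Elavl1, chr8:4301731-4301790: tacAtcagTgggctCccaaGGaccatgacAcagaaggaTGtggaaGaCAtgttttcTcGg
Over the whole exons of each member, the share of 50-base stretches found identically elsewhere in the genome was at most 0.511% (Elavl3), and none of the 75-base stretches of any of the 9 had such a place. The exons of Celf2 shared 196 bases with the opposite-strand gene Gm17437, which had 0 to 7 counts, and those of Celf5 shared 543 bases with the opposite-strand Gm16105, which had 0 to 1. Whether the counting used the strand is not given in the sources used here, so counts in those bases cannot be assigned to 1 strand.

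Each library held 3416030 to 5614089 counts on genes, so that 3 counts, the limit that a count of 0 allows, corresponded to 0.534 to 0.878 CPM (counts scaled to a common library size). All 9 members were far above it, from 159 counts for Elavl2 in a KO TRAP library to 5046 for Celf4 in a WT TRAP library. Fosb, the targeted gene, ran from 18.8 to 29.3 CPM in KO TRAP against 31.95 to 45.1 in WT TRAP, and from 14.8 to 17.1 in KO input against 22.2 to 30.2 in WT input. It was lower in KO in both library types without overlap, as labelled, but did not pass edgeR's test after Benjamini-Hochberg adjustment across genes (adjusted p = 0.337 in TRAP and 1.00 in input). Most of its counts remained in KO, with means of 23.2 against 39.1 CPM in TRAP and 16.0 against 25.6 in input. The log2 fold change was -0.76 in TRAP and -0.68 in input, and their difference was -0.08 (95% interval -0.71 to 0.54). The counts are of the whole gene, and those of the deleted part alone were not analysed here. Of 10 neuron markers, 8 rose and 1 fell in TRAP against input, whereas markers of glia fell (astrocyte 8 of 8, oligodendrocyte 9 of 9, microglia 8 of 8), and 9 of 10 markers of GABA neurons fell too. Genes of the mitochondrial genome took 5.29% to 9.05% of counts in input and 0.0305% to 0.1299% in TRAP. The input library of WT pool 1 stood apart from the other 5 input libraries: it had 15678 genes with counts against 17255 to 18090 (15601 to 15989 in TRAP), the lowest mitochondrial share of the input libraries and the fewest counts of all 12. In bulk samples of this kind, fewer cells of a type and less RNA per cell cannot be told apart.

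To compare levels between genes, CPM was divided by the length of each gene's exons. On this scale, CPM per kilobase, Celf4 was the highest of the 9 mRNAs in all 4 groups and Elavl2 the lowest. In TRAP, Celf4 (chr18:25636133-25912484 on mm9) averaged 208 ± 15.4 CPM per kilobase for WT and 189 ± 11.7 for KO, and in input 169 ± 7.05 for WT and 166 ± 5.86 for KO (SD, n = 3). Elavl3 (chr9:21819449-21856467) came next with group means of 89.3 to 108, and the ranges of Celf4 and Elavl3 did not overlap in any group.

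Celf5 (chr10:80921972-80945454) had the third highest mean in every group, at 60.03 ± 7.67 CPM per kilobase (WT) and 58.3 ± 2.83 (KO) in TRAP and 46.5 ± 3.19 (WT) and 48.1 ± 3.13 (KO) in input. Celf3 (chr3:94282753-94296115) and Celf2 (chr2:6460751-7002348) followed with group means between 36.9 and 48.2, and in WT input the ranges of Celf5 and Celf3 overlapped. Their order could not be told in 3 of the 4 groups, where their ranges overlapped, and in KO TRAP the 3 values of Celf3 were all above those of Celf2. Celf1 (chr2:90780539-90859654), Elavl4 (chr4:109876327-110024514) and Elavl1 (chr8:4284782-4325100) had group means of 24.4 to 29.9, 20.5 to 26.7 and 19.8 to 22.9. Elavl4 and Elavl1 overlapped in every group, and Celf1 and Elavl4 in every group but KO input. Elavl2 (chr4:90917454-91066675) had group means of 10.4 to 15.1, below Elavl1 without overlap in all groups except WT input.

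**Figure D1:**
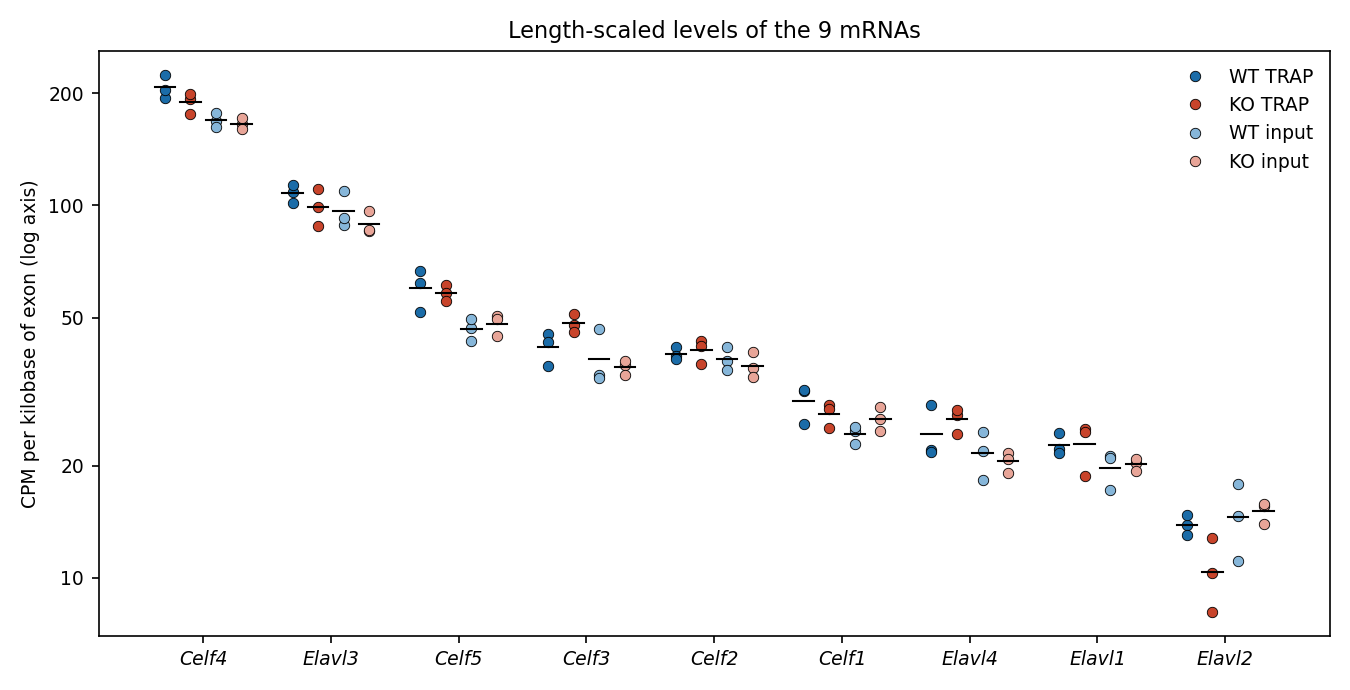
Length-scaled level (CPM per kilobase of exon, log axis) of the 9 mRNAs, ordered by their mean over all libraries. Each point is 1 library, colours mark the 4 groups and the bar is the group mean; Celf4 and Elavl3 stood above the rest in each group and Elavl2 had the lowest mean in each.

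The length used matters for genes with many transcripts. With the longest annotated transcript in place of all exons, 26 of 36 ranks (9 members in 4 groups) were the same, and the first 3 and the last places were held by the same genes. The level of Celf5 was then higher, at 91.2 (WT) and 88.5 (KO) CPM per kilobase in TRAP and 70.6 (WT) and 73.1 (KO) in input. Under that length Celf2 stood above Celf3 in all 4 groups (55.2 against 41.7 CPM per kilobase in WT TRAP), and the ranges of Elavl3 and Celf5 overlapped in KO TRAP.

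Within the ELAV-like family, Elavl3 made up most of the summed length-scaled level, 63.8% ± 2.96 for WT and 62.3% ± 0.424 for KO in TRAP, and 63.3% ± 3.49 and 61.5% ± 2.29 in input (SD, n = 3). Elavl1 and Elavl4 each held 12.95% to 16.9% by group mean. Celf4 held the largest part of the CELF sum, with group means of 51.9% to 54.7%. Celf5 followed with 14.7% to 16.0%, Celf2 and Celf3 with 10.5% to 13.2%, and Celf1 with 7.59% to 8.50%. All shares use the length of all exons and were not computed with the longest transcript. Under that length Celf5 and Celf2 were higher and Celf4 nearly the same, so the share of Celf4 would be smaller.

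The share of Elavl2 in its family was 7.63% to 8.84% in WT TRAP and 5.71% to 7.23% in KO TRAP, without overlap, and 6.70% to 12.003% in WT input and 9.85% to 11.0% in KO input, with overlap. The share of Celf3 was 9.36% to 11.99% in WT TRAP and 13.1% to 13.4% in KO TRAP, again without overlap. Celf1 held 7.16% to 7.98% of the CELF sum in WT input and 8.05% to 9.06% in KO input, which did not overlap either. With 3 libraries against 3 an exact permutation test cannot give a two-sided p below 0.1, and each of these 3 differences reached that value (raw p = 0.1). They were 2 of 9 members in TRAP and 1 of 9 in input, and the shares of the other members overlapped between genotypes. Among single genes by CPM, 11.6% had groups that did not overlap in TRAP and 8.38% in input. After Benjamini-Hochberg adjustment across the 9 members, the exact permutation p was 0.45 for Elavl2 and Celf3 in TRAP and 0.9 for Celf1 in input.

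TRAP was compared with input to ask which of the 9 mRNAs were more abundant on tagged ribosomes of NAc-projecting neurons than in the whole punch. Over both genotypes, Celf5, Celf4, Elavl4 and Celf3 were higher in TRAP and Elavl2 was lower, and the other 4 did not pass the test. These differences were small, between 0.24 and 0.32 on the log2 scale for the 4 that rose. In edgeR's quasi-likelihood fit, with p-values adjusted across all genes (Benjamini-Hochberg), 5 of 9 members were called at an adjusted p under 0.05, and 42.8% of the 13214 genes tested were called. The median log2 fold change was 0.19 over the 9 members and -0.01 over all genes tested.

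Celf5, a CELF protein of neurons, had 413, 444 and 344 CPM in the TRAP libraries of the WT pools and 288, 312 and 330 in their input. The KO pools had 407, 389 and 370 CPM in TRAP and 297, 336 and 330 in input. All 6 TRAP libraries were above all 6 input libraries. The log2 fold change of TRAP over input was 0.32 ± 0.07 (SE, adjusted p = 0.000415 by edgeR), and within pools the ratio was above 0 in 6 of 6, from 0.06 to 0.52 on the log2 scale. An exact sign-flip permutation test over the 6 pools gave p = 0.031, the smallest it can give; 38.6% of the 13214 genes moved in 1 direction in all 6 pools. Celf4, which binds many synaptic mRNAs, had 897, 775 and 818 CPM in the TRAP libraries of the WT pools and 673, 650 and 706 in their input. The KO pools had 772, 795 and 705 CPM in TRAP and 662, 686 and 639 in input. Only the KO TRAP library of pool 4 fell within the range of the input libraries. Celf4 rose by 0.24 ± 0.06 on the log2 scale (SE, adjusted p = 0.00139 by edgeR), again in 6 of 6 pools, from 0.14 to 0.41 (exact permutation p = 0.031).

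Elavl4, the neuronal HuD, had 119, 117 and 157 CPM in the TRAP libraries of the WT pools and 132, 118 and 98.7 in their input. The KO pools had 148, 152 and 131 CPM in TRAP and 116, 103 and 112 in input. The KO libraries separated by type and the WT libraries did not. Its log2 fold change was 0.27 ± 0.09 (SE, adjusted p = 0.0169 by edgeR), and the within-pool ratio was above 0 in 4 of 6 pools (exact sign-flip permutation p = 0.125). Celf3 had 102, 124 and 118 CPM in the TRAP libraries of the WT pools and 128, 96.0 and 94.3 in their input. The KO pools had 131, 140 and 125 CPM in TRAP and 103, 96.3 and 105 in input. Pool 1 of WT went the other way from the rest: its within-pool log2 ratio was -0.33, whereas the other 5 pools ran from 0.26 to 0.54. The input library of this pool is the one that stood apart in genes with counts, and it held the highest input value of Elavl1, Elavl3, Elavl4 and Celf3 and the lowest of Elavl2, Celf1 and Celf5. Its part in these values beyond leaving out the pool was not tested. Without WT pool 1 the log2 fold changes of TRAP over input were 0.38 for Celf3, 0.37 for Elavl4, 0.20 for Elavl3, -0.40 for Elavl2, 0.30 for Celf5 and 0.22 for Celf4, all 6 called (adjusted p at most 0.0284 by edgeR). Over both genotypes Celf3 rose by 0.25 ± 0.09 (SE, adjusted p = 0.0286 by edgeR), and the exact sign-flip permutation p over the pools was 0.125. Leaving out 1 pool ended the call of Elavl4 for WT pool 3 (adjusted p = 0.126 by edgeR) and KO pool 3 (0.0710), and that of Celf3 for WT pool 2, WT pool 3, KO pool 2 and KO pool 3 (0.0740 to 0.113).

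Elavl2, the neuronal HuB, had 75.9, 71.0 and 80.4 CPM in the TRAP libraries of the WT pools and 60.7, 97.8 and 80.0 in their input. The KO pools had 44.3, 69.7 and 56.1 CPM in TRAP and 76.0, 85.0 and 86.3 in input. All 3 KO TRAP libraries were below all 3 KO input libraries, and the WT TRAP values lay within the WT input range. Over both genotypes Elavl2 fell by 0.30 on the log2 scale (SE 0.12, adjusted p = 0.0451 by edgeR). The within-pool log2 ratios were 0.32, -0.46 and 0.01 in WT and -0.77, -0.28 and -0.62 in KO, and the exact sign-flip permutation test over the 6 pools gave p = 0.1875. The call was held in 8 of 15 alternatives and lost when WT pool 2, KO pool 2, KO pool 3 or KO pool 4 was left out (adjusted p 0.0854 to 0.241 by edgeR). Markers of GABA neurons were lower in TRAP in both genotypes. The 10 of the list summed to 290 to 430 CPM in WT TRAP against 879 to 935 in WT input. In KO they summed to 182 to 651 CPM in TRAP against 896 to 1042 in input. None of the 10 was at 0 in any group. Their median log2 fold change was -1.93 in WT, where that of Elavl2 was -0.06, and -1.68 in KO, where that of Elavl2 was -0.55. Over both genotypes it was -1.72, and the medians of the astrocyte, oligodendrocyte and microglia lists were lower (-3.02, -3.46 and -3.51). The part of any of these cell types in the values of Elavl2 was not tested.

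The remaining 4 members did not pass the test. Elavl1 had 113 to 152 CPM in TRAP and 104 to 128 in input, Elavl3 442 to 570 and 430 to 549, Celf1 214 to 270 and 193 to 242, and Celf2 460 to 531 and 424 to 510, so all 4 overlapped between library types. Their log2 fold changes by edgeR were 0.19 ± 0.09 for Elavl1 (SE, adjusted p = 0.0678), 0.15 ± 0.07 for Elavl3 (0.0762), 0.17 ± 0.08 for Celf1 (0.0740) and 0.09 ± 0.06 for Celf2 (0.255). Each was above 0 within 5 of 6 pools. With the pool as a block, since TRAP and input of a pool come from the same mice, Elavl3 passed as well (log2 fold change 0.15, adjusted p = 0.0400 by edgeR), and no other call among the 9 changed. Without a composition factor (total counts), which moved the median of all genes from -0.013 to 0.013, Elavl1, Elavl3 and Celf1 were called higher (adjusted p 0.0340 to 0.0392 by edgeR) and Elavl2 was not called (0.0598).

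**Figure D2:**
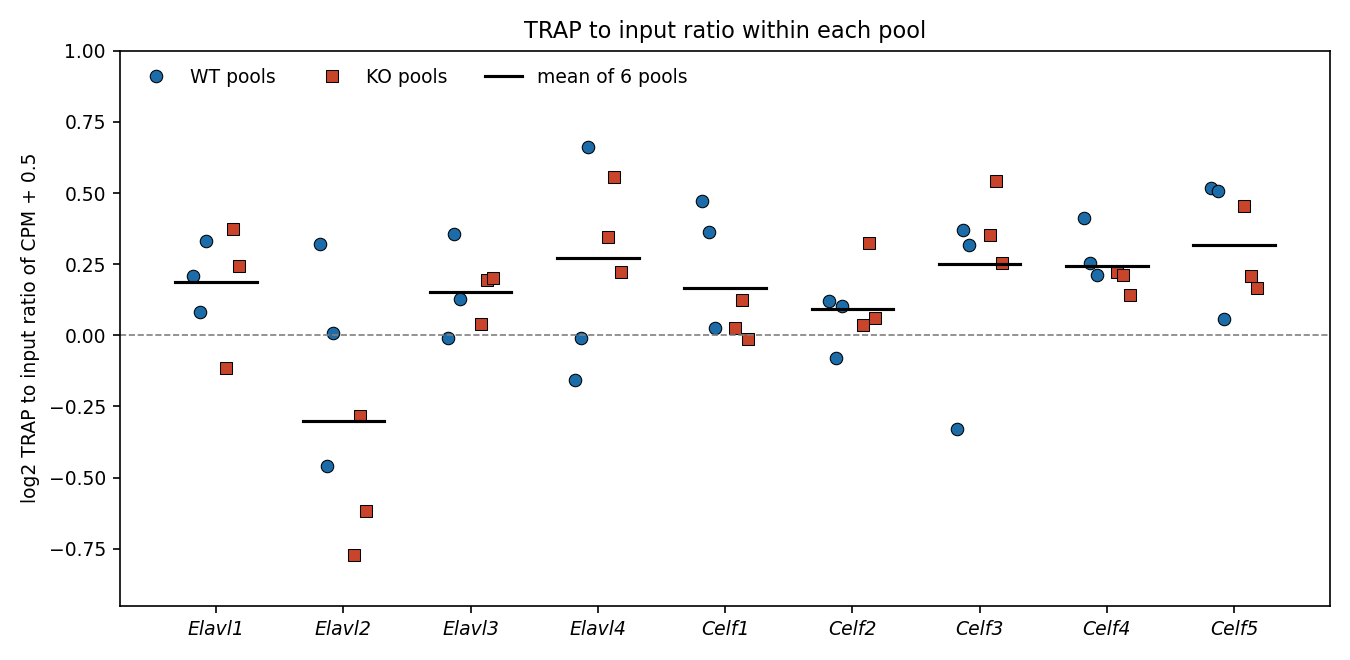
Log2 ratio of TRAP to input within each pool, from CPM + 0.5, for the 9 mRNAs. Circles are the 3 WT pools, squares the 3 KO pools and the bar is the mean of 6 pools; Celf4 and Celf5 lie above 0 in all 6, and Elavl2 lies below 0 in 4 of 6.

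Taken within WT alone, Celf4 (0.30 ± 0.10 on the log2 scale, SE) and Celf5 (0.38 ± 0.11) were called higher in TRAP, which is 2 of 9 members where 24.9% of 12426 genes were called (adjusted p = 0.0284 and 0.0217 by edgeR). Within KO alone, Celf3 (0.37 ± 0.11), Elavl4 (0.37 ± 0.11) and Celf5 (0.27 ± 0.09) were called higher and Elavl2 fell by 0.55 (SE 0.15), which is 4 of 9 where 29.1% of 12463 genes were called (adjusted p = 0.0134, 0.0158, 0.0368 and 0.00807 by edgeR). Leaving out 1 pool left 0 to 1 of the members called in WT and 0 to 2 in KO. A call in 1 genotype and not in the other does not show that they differ. The interaction of genotype and library type was called for 0 of 9 members, also at an unadjusted p under 0.05, and for 1 of 13214 genes (0.007568%). Elavl2 came nearest, with a difference of -0.46 on the log2 scale (95% interval -0.94 to 0.01, place 406 by p among the genes), followed by Celf1 at -0.25 (-0.56 to 0.06) and Celf3 at 0.27 (-0.10 to 0.65). The value of Celf3 was 0.0030 without WT pool 1 and ran from 0.18 to 0.40 without any 1 of the other 5 pools.

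The within-pool ratios were also compared between members of a family, in 16 pairs, and between the sums of the families. None of the 17 differences passed an exact sign-flip permutation test over 6 pools after adjustment (smallest adjusted p = 0.398), and the smallest raw p that 6 pools allow is 0.031. A pair alone at that value cannot pass after adjustment over 17, so this test cannot decide for any single pair. Celf5 had a higher ratio than Celf1 in 6 of 6 pools, by 0.15 ± 0.15 on the log2 scale (SD, raw exact permutation p = 0.031). Elavl2 had a lower ratio than Elavl4 in 5 of 6 pools (mean difference -0.57, SD 0.56) and than Elavl1 in 5 of 6 (0.49 lower in the mean, SD 0.34). The ratio of the ELAV-like sum was -0.08 ± 0.14 relative to that of the CELF sum.

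KO was compared with WT within TRAP libraries to ask whether the loss of FosB in NAc-projecting neurons changed the 9 mRNAs. None of the 9 was called (0 of 9, where 0.06822% of 11727 genes were called, 8 in all), and Elavl2 was the only member with an unadjusted p under 0.05, as were 709 of the genes tested. Elavl2 was 75.8 ± 4.74 CPM in WT TRAP and 56.7 ± 12.7 in KO TRAP (SD, n = 3), and the library values given above show no overlap: the lowest WT value was 71.0 and the highest KO value 69.7. The log2 fold change was -0.41 (95% interval -0.74 to -0.09), place 217 by p among the genes, with an adjusted p = 0.728 by edgeR. It stayed below 0 in 16 of 16 alternatives, from -0.58 to -0.26, and was called in none. The study picked Elavl2 from these libraries as a gene to follow up, so its direction here is not independent of that choice. In that follow-up, by qPCR in Neuro2A cells overexpressing ΔFosB, a product of the FosB gene, Elavl2 did not differ significantly from control.

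Celf3 also separated the genotypes in TRAP, at 114 ± 11.4 CPM in WT and 132 ± 7.52 in KO (SD, n = 3), with a highest WT value of 124 and a lowest KO value of 125. Its log2 fold change was 0.21 (95% interval -0.03 to 0.45, place 1159 by p, adjusted p = 0.849 by edgeR). For both genes the exact permutation p was 0.1, the smallest that 3 against 3 can give, and 11.6% of the 13214 genes had groups in TRAP that did not overlap, against 2 of these 9. The other 7 overlapped. Their log2 fold changes lay between -0.13 (Celf4) and 0.14 (Elavl4), and the widest 95% interval among them ran from -0.12 to 0.39 (Elavl4). The summed level of 10 neuron markers was 12952 to 13814 CPM in WT TRAP and 11574 to 12612 in KO TRAP, without overlap, and none of the 10 was called. The sums of the other cell-type lists overlapped between genotypes in TRAP, with 8768 to 9451 CPM (WT) and 7877 to 9052 (KO) for glutamate neurons. The part of these sums in the values of Elavl2 and Celf3 was not tested.

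In input libraries none of the 9 was called (0 of 9, where 0.03121% of 12816 genes were called), and none had an unadjusted p under 0.05. The groups of all 9 overlapped, whereas 8.38% of genes had groups that did not. The log2 fold changes lay between -0.11 (Elavl3, 95% interval -0.34 to 0.11) and 0.14 (Celf1, -0.09 to 0.36). Elavl2 was 79.5 ± 18.6 CPM in WT input and 82.4 ± 5.595 in KO input (0.05, -0.28 to 0.39), and Celf3 106 ± 19.0 and 101 ± 4.49 (-0.06, -0.35 to 0.23). Without WT pool 1, whose input library stood apart, 0 of 9 were called and the log2 fold changes lay between -0.10 (Elavl2) and 0.10 (Celf3).

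**Figure D3:**
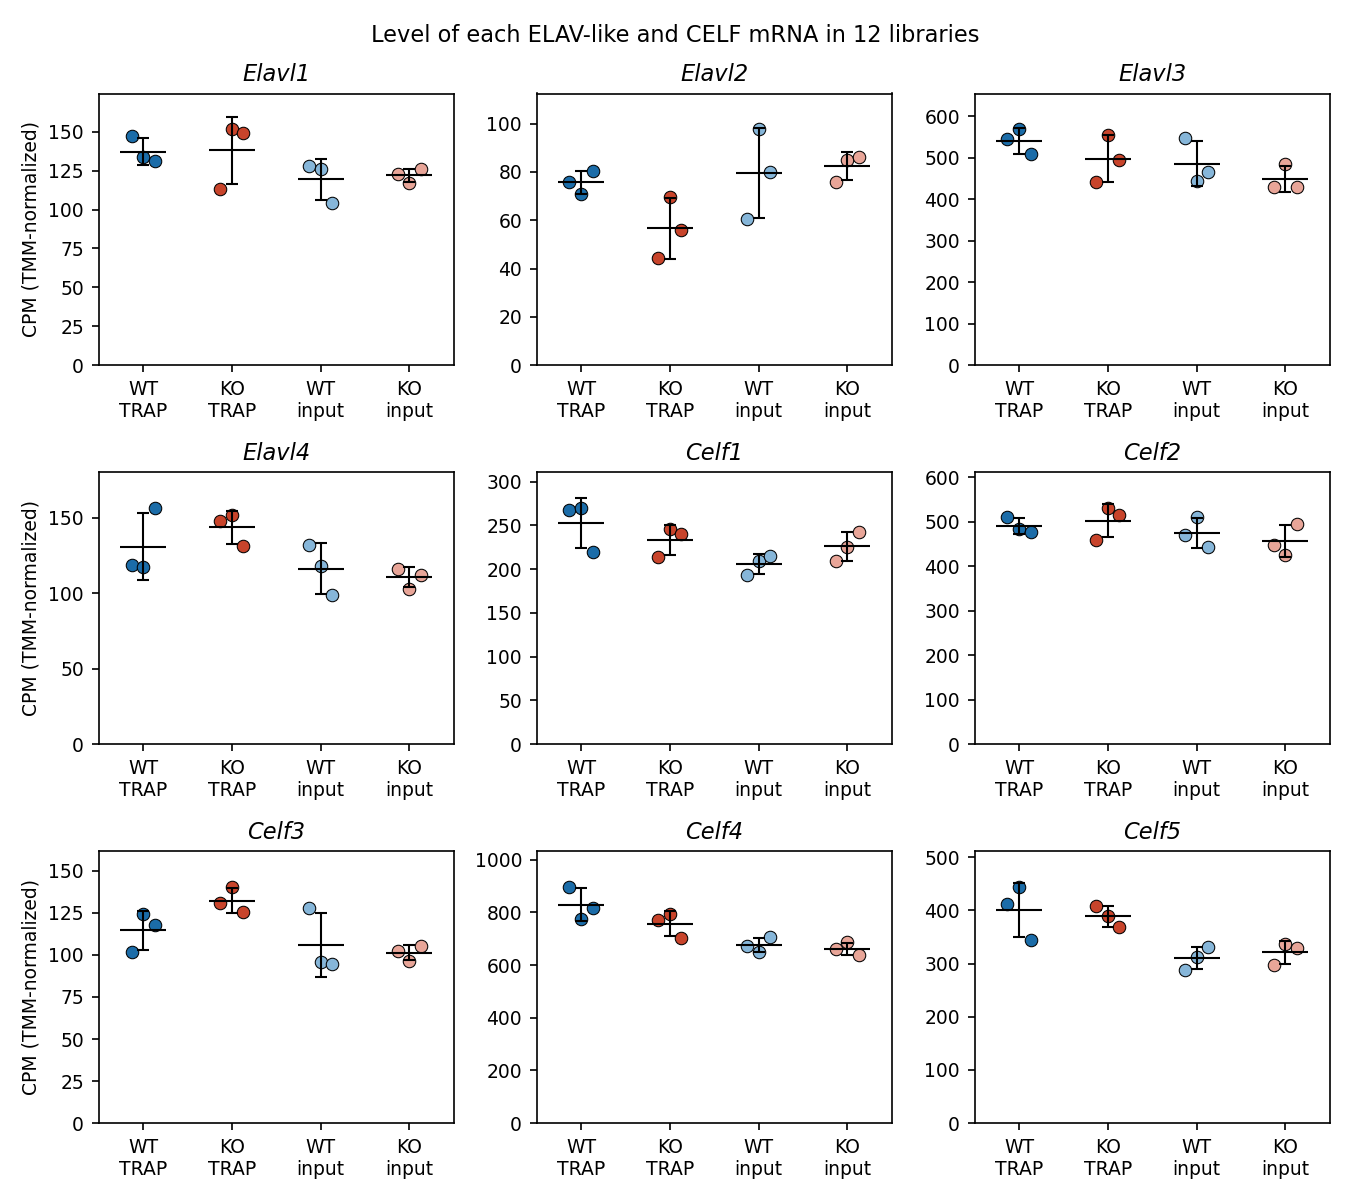
TMM-normalized CPM of the 9 mRNAs in the 12 libraries, 1 panel per gene with its own axis from 0. Points are libraries, the long bar is the group mean and the whisker is 1 SD (n = 3 per group); Elavl2 is lower and Celf3 higher in all KO TRAP than in all WT TRAP libraries.

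**Figure D4:**
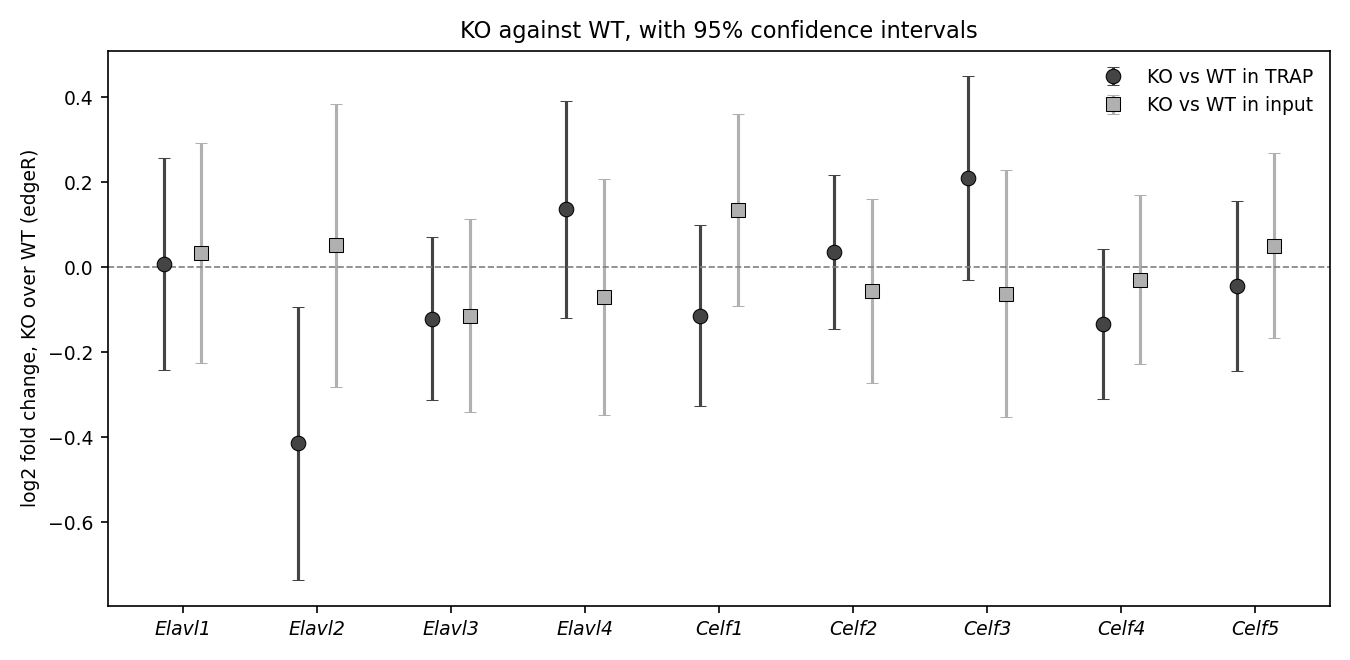
Log2 fold change of KO over WT (edgeR) for the 9 mRNAs in TRAP libraries (circles) and input libraries (squares), with 95% confidence intervals. The interval of Elavl2 in TRAP lies below 0, from -0.74 to -0.09 before any adjustment, and the other 17 intervals cover 0.

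FosB acts with Jun proteins at AP-1 sites, and related bZIP dimers bind cAMP response elements, so the promoters were searched for the letters of both, TGANTCA and TGACGTCA, which read the same on both strands and do not overlap each other as patterns. RefSeq promoter windows on GRCm38.p6, from 250 bases before to 50 after a start, were found for 8 of the 9 members (not for Celf4). TGANTCA stood in 1 of 5 windows of Celf2 and 1 of 5 of Celf5 and in none of the other 6 genes. Over all genes, 8.97% had a window with it, and 7.81% of windows held it. TGACGTCA stood in 3 of 7 windows of Celf3 and in no other member, where 2.03% of genes and 1.79% of windows held it. Of the 6 windows of Elavl2 and the 7 of Celf3, the 2 members whose TRAP groups did not overlap, 1 each is shown: for Elavl2, which had neither motif in any window, the first in the RefSeq table, and for Celf3 the first with a motif, chosen for it, while 4 of its 7 windows held none. They are written 5′ to 3′ on the strand of the gene, with any motif in capitals. A match is a description of the letters and not a bound site.
Elavl2 promoter, chr4:91399935-91400234, minus strand: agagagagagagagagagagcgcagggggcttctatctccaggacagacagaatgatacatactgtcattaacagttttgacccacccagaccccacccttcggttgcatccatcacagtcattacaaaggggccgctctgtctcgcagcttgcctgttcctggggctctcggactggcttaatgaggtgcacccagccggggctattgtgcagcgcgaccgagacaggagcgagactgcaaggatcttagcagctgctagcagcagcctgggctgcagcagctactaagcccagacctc
Celf3 promoter, chr3:94484108-94484407, plus strand: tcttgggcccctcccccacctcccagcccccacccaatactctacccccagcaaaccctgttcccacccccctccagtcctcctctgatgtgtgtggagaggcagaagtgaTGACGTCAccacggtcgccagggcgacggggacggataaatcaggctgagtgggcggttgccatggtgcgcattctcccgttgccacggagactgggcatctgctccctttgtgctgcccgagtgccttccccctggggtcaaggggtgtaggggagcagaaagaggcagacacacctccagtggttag
In the Celf3 window the motif began at position -139 relative to the start.

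The other genes of RNA-binding pathways were read from lists. Between KO and WT in TRAP, 0 genes were called in the lists of mRNA decay regulators (11 tested), neuronal splicing regulators (26), regulators of mRNA transport and translation (24), reported targets of ELAV-like proteins (18) and reported targets of CELF proteins (10). Their median log2 fold changes lay between -0.05 and 0.05, and the median of all genes was 0.00.

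Between TRAP and input over both genotypes, regulators of decay of AU-rich and GU-rich mRNAs split, with 3 higher and 3 lower of 12 tested (median -0.06). The 3 lower ones were the tristetraprolin family of decay factors, Zfp36l1 (log2 fold change -2.39), Zfp36l2 (-2.57) and Zfp36 (-1.75), and the higher ones were the decay factor Khsrp (0.61), the poly(C)-binding Pcbp1 (0.41) and the nonsense-mediated decay helicase Upf1 (0.41). Of 26 splicing regulators, 14 were higher and 3 lower (median 0.23), led by Rbfox3 (0.54), Hnrnpk (0.56), Khdrbs1 (0.64) and Hnrnpa2b1 (0.53), with Ptbp3 (listed as Rod1, -1.03), Nova1 (-0.78) and Mbnl1 (-0.23) lower. Celf6, the CELF gene outside the 9 and named after its values were seen, was in this list and was called higher (0.48, adjusted p = 0.00154 by edgeR). Of 24 regulators of transport and translation, 4 were higher, the stress granule genes G3bp2 (0.67), Caprin1 (0.59) and G3bp1 (0.34) and the fragile X relative Fxr2 (0.38). In this list 9 were lower, led by the Musashi genes Msi2 (-1.95) and Msi1 (-1.60), the poly(A)-binding Pabpc1 (-0.65) and the dendritic transport factor Stau2 (-0.67).

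Among 18 mRNAs reported as targets of ELAV-like proteins, 8 were higher and 5 lower in TRAP (median 0.13 against -0.01 over all genes). The higher ones included the growth cone gene Gap43 (log2 fold change 0.60), the classical target of HuD, Actb (0.35) and Cdkn1a (1.70), and the lower ones Msi1 (-1.60), Nf1 (-0.52), Vegfa (-0.80) and Ank3 (-0.31). Of 10 reported targets of CELF proteins, 4 were higher and 1 lower (median 0.09), namely the NMDA receptor gene Grin1 (0.76), Jun (0.59), the tau gene Mapt (0.30) and Actn1 (0.37), and Insr (-0.74). Of all genes tested in this comparison, 42.8% were called, 20.1% higher and 22.7% lower. The counts describe the lists, and no list was tested against all genes.

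The genes whose log2(CPM + 0.5) was most like that of each member over the 12 libraries were looked up among the 13214 genes tested, as a description. Elavl2 was most like St18 (Pearson r = 0.92), Lrriq1 (0.91) and Arhgef6 (0.90). The nearest gene was Spin2 for Elavl1 (0.88), Med24 for Elavl3 (0.95), 4933421E11Rik for Elavl4 (0.92), Calb1 for Celf1 (0.90), Map2k4 for Celf2 (0.89), Rwdd2a for Celf3 (0.95), Egr1 for Celf4 (0.95) and Rhob for Celf5 (0.98). Among the members themselves, Elavl1 with Celf2 (0.82), Elavl4 with Celf3 (0.81), Celf1 with Celf5 (0.79) and Celf4 with Celf5 (0.75) had the highest r, and Elavl2 with Celf3 (-0.73) the lowest. The 12 libraries come from 6 pools and differ in library type, which all of these values share.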

How the data were processed

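TRAP and input RNA of 6 pools of mice was sequenced from SMARTer stranded total RNA libraries. The authors deposited raw counts of reads per gene, made with TopHat on mm9 and HTSeq-count against Gencode vM1, and named DESeq2 for their own comparisons. Rows that name no gene were left out (20.6% to 27.1% of uniquely aligned reads on no feature, 2.11% to 2.56% ambiguous). Groups came from the labels, and a label without the word input was read as TRAP.

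Comparisons of counts used edgeR 4.0.16 in R 4.3.3 (default filter by group, TMM, robust quasi-likelihood test, Benjamini-Hochberg adjustment over all genes tested, threshold 0.05). KO was compared with WT within TRAP and within input, TRAP with input within each genotype and over both, and the interaction over 12 libraries. Standard errors are the fold change divided by the square root of F. Single members were compared on log2(CPM + 0.5) by exact two-sided permutation, or by sign flips over pools, with all arrangements counted in Python 3.11.15. The permutation was checked on a small example against scipy 1.17.1. P-values measure the spread between pools. The alternatives included DESeq2 1.42.0.

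The labels give TRAP and input of a pool the same letter and number, so they come from the same mice. Their deviations from the group means correlated at 0.053 to 0.099 within a pool and at -0.087 to -0.013 between pools. KO and WT pools with the same number are different mice.

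The members and lists were chosen with earlier results of these data known. Genes named by rule are the 9 members, at most 4 called genes in each direction of each list by smallest p, the most alike genes (3 for Elavl2, 1 for each other member) and Fosb. Named outside this rule are Celf6, after its values were seen, and Gm17437 and Gm16105, which share exon bases with members. 1 gene that this rule names is not reported here.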

Additional observations from a re-analysis of the deposited data

Results flagged for a closer look

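The log2 TRAP to input ratio of Celf3 in WT pool 1 was -0.33, with the other 5 pools between 0.26 and 0.54. The gap to the nearest pool was 0.672 of the whole range of the 6 pools, above the 95% critical value of Dixon's test for 6 values. It rests on 102 CPM in the TRAP library and 128 in the input library of that pool, against 94.3 to 105 in the other 5 input libraries. That input library had 15678 genes with counts, against 17255 to 18090 in the other 5, and the part of this in the ratio was not tested. The ratios of the other 8 members stayed under that value in all 6 pools, and chance alone passes it in about 1 of 20 groups. Groups of 3 libraries were not tested in this way.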

How the results depend on the processing

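Precision was limited by 3 pools per group and, for Elavl2, by as few as 159 counts in a library. With 3 against 3 libraries a single member cannot reach an exact permutation p below 0.1. None of the 9 members was called between KO and WT, in TRAP, input or the interaction, under any alternative run, and Celf4 and Celf5 were called higher in TRAP over both genotypes under all 15 alternatives. Among the refits of a member's log2 fold change, 718 kept direction and side of the threshold, 28 lost a call, 9 gained one and 28 changed sign, the last only for members that were not called. The cause of these changes was not tested.

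Genes called between KO and WT in TRAP were 8 and became 41 without a filter, 18 and 15 with DESeq2 without and with a prior, and 5 to 20 with 1 pool left out. In input they were 4 and became 19 without a filter, 8 and 8 with DESeq2, 7 in a fit of all 12 libraries, 20 with the pool number as a replicate block and 1 to 5 with 1 pool left out. With 1 pool left out, fewer samples entered each fit: the members called higher or lower in TRAP were 0 to 1 in WT, 0 to 2 in KO and 2 to 6 over both, and the genes called came to between 1289 and 3243 for WT and between 1982 and 3181 for KO. The lowest counts of genes came without WT pool 3 and without KO pool 4. The interaction was called for 1 gene, for 0 without robust estimation and for 0 to 1 with 1 pool left out. Without pairing TRAP and input of a pool, 1 of 17 differences between members passed, Celf1 minus Celf5 (-0.15, adjusted p = 0.0368 by exact permutation). With the pairing 0 passed, where a pair alone cannot pass.

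For KO over WT, the replicate block uses numbers that do not mark shared mice (same-numbered deviations correlated at -0.064 to 0.004). It gave log2 fold changes of -0.0087 for Elavl1 and 0.025 for Celf5 in TRAP, and of -0.13 for Elavl2, 0.0092 for Elavl3, 0.023 for Elavl4, 0.066 for Celf3 and -0.021 for Celf5 in input, each of opposite sign to the value without it. For TRAP over input, where the pairing holds, it changed no call other than that of Elavl3. Total counts moved the median interaction of all genes from 0.0046 to 0.046, and with it those of Elavl1 to 0.016 and of Elavl3 to 0.037, a shift of all genes and not of these members.

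With 1 pool left out, the sign of KO over WT was not fixed for Elavl1 (-0.060 to 0.13) and Celf5 (-0.14 to 0.042) in TRAP, nor for Elavl1 (-0.059 to 0.091), Elavl2 (-0.10 to 0.23), Elavl4 (-0.18 to 0.037), Celf3 (-0.14 to 0.10) and Celf4 (-0.057 to 0.00077) in input. The same held for TRAP over input of Elavl2 (-0.22 to 0.14), Elavl4 (-0.080 to 0.35) and Celf3 (-0.024 to 0.36) in WT and of Celf1 (-0.014 to 0.069) in KO, and for the interaction of Elavl1 (-0.14 to 0.088), Elavl3 (-0.13 to 0.094) and Celf2 (-0.0075 to 0.13). Among differences between members it held for Elavl1 minus Elavl3 (-0.0015 to 0.097), Celf1 minus Celf2 (-0.0021 to 0.13), Celf3 minus Celf4 (-0.055 to 0.16) and Celf3 minus Celf5 (-0.15 to 0.087). By length-scaled level, 26 of 36 ranks within a group were the same with the longest transcript as length, and 14 to 18 of 18 with 1 pool left out.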
